A study of Mus musculus with 9 samples.

Results

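Among the GABA neurons sorted from the mouse ventral midbrain, 125 cells carried mRNA of the homeobox gene Nkx2-2 together with Otx1, Gli3 or Stk32a. They were 8.57% of the 1459 VGAT cells that passed the quality limits, out of 2034 passing cells on all 9 plates of the series. A cell was a member when its well held at least 1 count of Nkx2-2 and at least 3 summed counts of Otx1, Gli3 and Stk32a. The cells were thus chosen by their measured counts of these 4 genes, whose levels are described here and not tested. The paper placed GABA neurons with Nkx2-2 in the midbrain reticular formation (MRF), some of them marked by Chrm2. Here Chrm2 and Zfp503 were taken as further markers of the combination. The present values hold no position in the tissue, so the cells are called Nkx2-2 Otx1 cells below.

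The cells came from VGAT-Cre:Ai14:Pitx3-GFP mice, which all groups share. Cre is driven by the gene of the vesicular GABA transporter (VGAT, Slc32a1) and switches on tdTomato permanently, so a red cell has expressed VGAT at some time. GFP is driven by Pitx3, a gene of midbrain dopamine neurons. Cells with tdTomato filled 4 plates at E16 (VGAT E16 replicates 1 to 4) and 3 plates at P0 (VGAT P0 replicates 1 to 3), and cells with tdTomato and GFP filled 1 plate at each stage (VGAT + PITX3 E16 and VGAT + PITX3 P0). Each well received 1 sorted cell, and mRNA was measured with SORT-seq, a plate form of CEL-seq2 with molecular barcodes. The brains behind each plate are not given, so that p-values measure the spread between plates, which may be technical.

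GABA neurons of the ventral midbrain form a mixed population. Those of the substantia nigra pars reticulata (SNr) send inhibitory output from the basal ganglia, those of the ventral tegmental area (VTA) control dopamine neurons, and those of the reticular formation lie among long fibre tracts and take part in eye movement, arousal and motor control. Their fate is set in the embryo by homeodomain factors that pattern the neural tube along its ventral to dorsal axis and by the selector genes Gata2, Gata3 and Tal1, which switch on the GABA programme. Nkx2-2 is a homeodomain repressor of ventral progenitors that responds to Sonic hedgehog, Gli3 is a zinc-finger factor of the same pathway, and Otx1 is a homeodomain factor of forebrain and midbrain. Stk32a encodes a serine/threonine kinase, Chrm2 the M2 muscarinic acetylcholine receptor, which couples to inhibitory G proteins, and Zfp503 a zinc-finger repressor.

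The 7 VGAT plates held between 1494450 and 5698560 counts in 44 to 304 passing cells. Well names carried 2 plate labels. The first matched the sample titles and was used, while the second gave the other stage for 4 of the 7 VGAT plates (E16 replicates 3 and 4, P0 replicates 1 and 3). Results that compare stages are therefore given with both labels. VGAT P0 replicate 2 stood apart with 1 Nkx2-2 Otx1 cell of 7472 counts, and no 2 passing VGAT cells had identical values. Well numbers recur between plates and do not identify a cell across them.

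Across the passing VGAT cells, 36.5% had a count of Nkx2-2 (532 cells), and 407 of them did not reach 3 counts of the other genes. A further 116 cells had those 3 counts without Nkx2-2, and 811 had neither. As a background, Nkx2-2 was found in 3.74% of 775 VGAT wells with under 500 genes (median 265 counts), and in 1.57% of 575 passing cells of the VGAT + PITX3 plates (median 11221 counts against 17278 on VGAT plates). Of these 575 cells 1 met the rule, on the E16 plate, and on the P0 plate 0 of 271 cells did, with an exact (Clopper-Pearson) 95% interval up to 1.35%.

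In the Nkx2-2 Otx1 cells Otx1 carried most of the second criterion. It was detected in 95.2% of them, Gli3 in 32.8% and Stk32a in 36.0%, and the median cell had 4 counts of Nkx2-2, 5 of Otx1 and 0 of both other genes. Otx1 alone was present in 54 cells, Otx1 with Stk32a in 30, Otx1 with Gli3 in 23 and all 3 genes in 12, while 3 cells had Gli3 alone and 3 had Gli3 with Stk32a. Among the other Nkx2-2 cells 19.9% had a count of Otx1. Nkx2-2 lies at chr2:147177546-147194243 (minus strand, GRCm38), Otx1 at chr11:21994764-22002897 (minus), Gli3 at chr13:15463235-15730026 (plus), Chrm2 at chr6:36388084-36528414 (plus) and Zfp503 at chr14:21983959-21989601 (minus).

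The limit of 3 counts cut through a continuous range. Just outside it, 38 Nkx2-2 cells had a sum of 2, and 57.9% of them had a count of Chrm2 with a median of 1. Just inside it, 13 cells had a sum of 3, with Chrm2 in 53.8% and a median of 2, and 15 cells had a sum of 4, with Chrm2 in 80.0% and a median of 3. When every cell was thinned to 8000 counts, which left out 283 shallower cells, 50 cells met the rule, all of them members at full depth. At 4000 counts 23 cells did.

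Nkx2-2 Otx1 cells were found on every VGAT plate, in very different shares. They were 16 of 190 cells (8.42%) on VGAT E16 replicate 1, 19 of 228 (8.33%) on replicate 2, 23 of 303 (7.59%) on replicate 3 and 50 of 304 (16.4%) on replicate 4. At P0 they were 9 of 44 (20.5%) on replicate 1, 1 of 219 (0.457%) on replicate 2 and 7 of 171 (4.09%) on replicate 3. The E16 shares averaged 10.2% ± 4.18 (SD, n = 4) and the P0 shares 8.33% ± 10.7 (SD, n = 3), and the ranges overlapped. The difference of -1.86 points was not larger than the spread between plates (2-sided exact permutation test over 35 splits, p = 0.771). With the second plate label it was -2.16 points (exact p = 0.743). Without VGAT E16 replicate 4, P0 replicate 2 or P0 replicate 3 it turned to 0.220, 2.08 and 0.257 points. Without VGAT P0 replicate 1 it was -7.92 points (exact p = 0.0667, the smallest this split of plates can give), and with cells thinned to 8000 counts -3.26 points (exact p = 0.143).

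**Figure D1:**
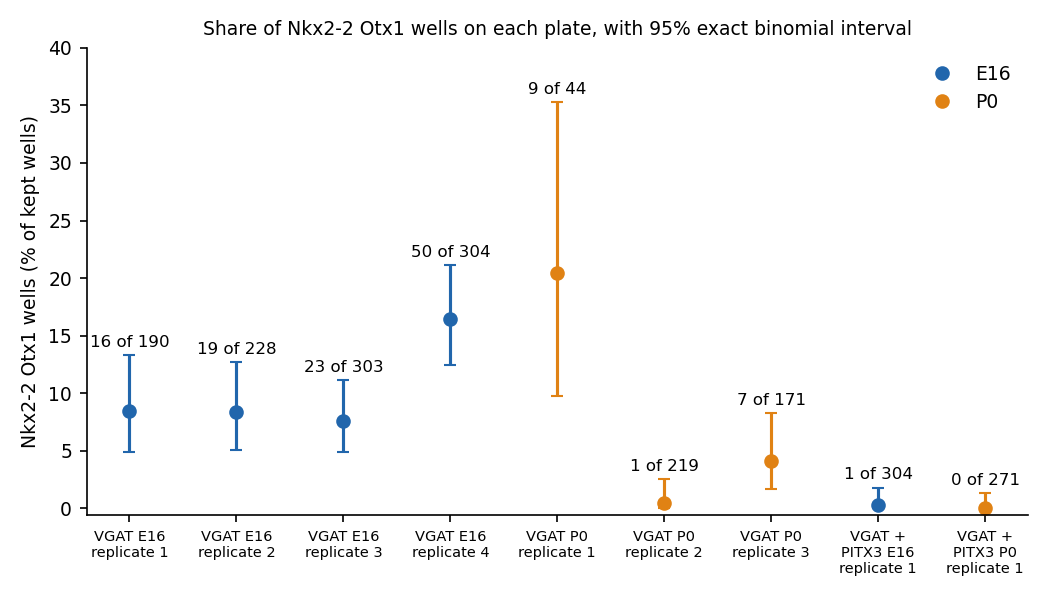
Share of Nkx2-2 Otx1 cells among the passing cells of each of the 9 plates in percent, with exact (Clopper-Pearson) 95% binomial intervals that cover counting error only. VGAT plates range from 0.457% to 20.5%, and the VGAT + PITX3 plates hold 1 cell in all.

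Nkx2-2 Otx1 cells were somewhat deeper than the rest, with a median of 21351 counts and 6043 genes against 16883 counts and 5376.5 genes in the other VGAT cells, and 4.43% against 5.09% mitochondrial counts. Over plates the difference in median counts was 3803 ± 5014 (SD, n = 7) and positive on 5 of 7 plates (2-sided exact sign-flip test, p = 0.0625, smallest possible p 0.0156). Since a deeper cell meets the rule more easily, shares of cells with a gene were also taken after thinning, and the comparisons with other VGAT cells and with other Nkx2-2 cells were repeated on thinned and on depth-matched cells. For the latter each Nkx2-2 Otx1 cell was set against 1 other cell of its plate with the nearest total count, so the comparison held fewer cells. On thinned cells the rule was applied again, so some members at full depth stood among the comparison cells. Among the genes of the naming rule and the lists that passed and could be tested again, depth-matched cells lost the calls of 36 of 112 against other VGAT cells and of 20 of 80 against other Nkx2-2 cells, and thinned cells those of 27 of 104 and 26 of 64.

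Chrm2, which the rule did not use but which belongs to the markers of these cells, was high on every plate. Its level in CPM (counts scaled to a common library size) of the plate sums was 600 on VGAT E16 replicate 1, 588 on replicate 2, 580 on replicate 3 and 711 on replicate 4, and 348, 271 and 513 on P0 replicates 1 to 3. In the other VGAT cells of the same plates it was 78.8, 92.1, 113, 175, 138, 137 and 83.1 CPM. The lowest plate of Nkx2-2 Otx1 cells thus lay above the highest plate of other cells, and the means were 516 ± 154 and 117 ± 35.2 CPM (SD, n = 7), 4.42-fold apart. The lowest value, 271 CPM on VGAT P0 replicate 2, was 4 counts in 1 cell. Scaling took the 6796 non-mitochondrial counts of that cell as 14778, which lowers its CPM. Against the other Nkx2-2 cells on the 6 plates with enough cells the means were 524 ± 112 and 107 ± 50.7 CPM, 4.88-fold apart.

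Per cell, Chrm2 had a median of 10 counts and a maximum of 79 in the Nkx2-2 Otx1 cells. Shares by a fixed count were taken at full depth, at a median of 21351 counts in these cells and 18706 in the other Nkx2-2 cells. At least 3 counts were present in 74.4% of them, in 24.8% of the other Nkx2-2 cells, in 23.3% of cells with the Otx1, Gli3 and Stk32a counts alone, and in 17.5% of cells with neither. After thinning to 4000 counts, Chrm2 was found in 66.9% ± 6.76 of the Nkx2-2 Otx1 cells and in 23.0% ± 4.51 of the other VGAT cells (SD, n = 6 plates). Zfp503 averaged 80.6 ± 51.9 CPM against 20.2 ± 4.73 CPM (SD, n = 7), and 53.6% of the cells had a count of it, against 12.0% of the other Nkx2-2 cells and 31.9% of cells with the Otx1, Gli3 and Stk32a counts alone. Zfp503 was higher on 6 of 7 plates, with no count in the single cell of VGAT P0 replicate 2. The long non-coding gene 9330158H04Rik, which overlaps Chrm2 on the opposite strand, averaged 176 ± 74.6 CPM against 33.2 ± 13.9 CPM, and reads of such a pair cannot be assigned with certainty. The marker genes came from a clustering of these same wells, so Chrm2, Zfp503 and the genes overlapping a marker were described and left out of the tests.

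**Figure D2:**
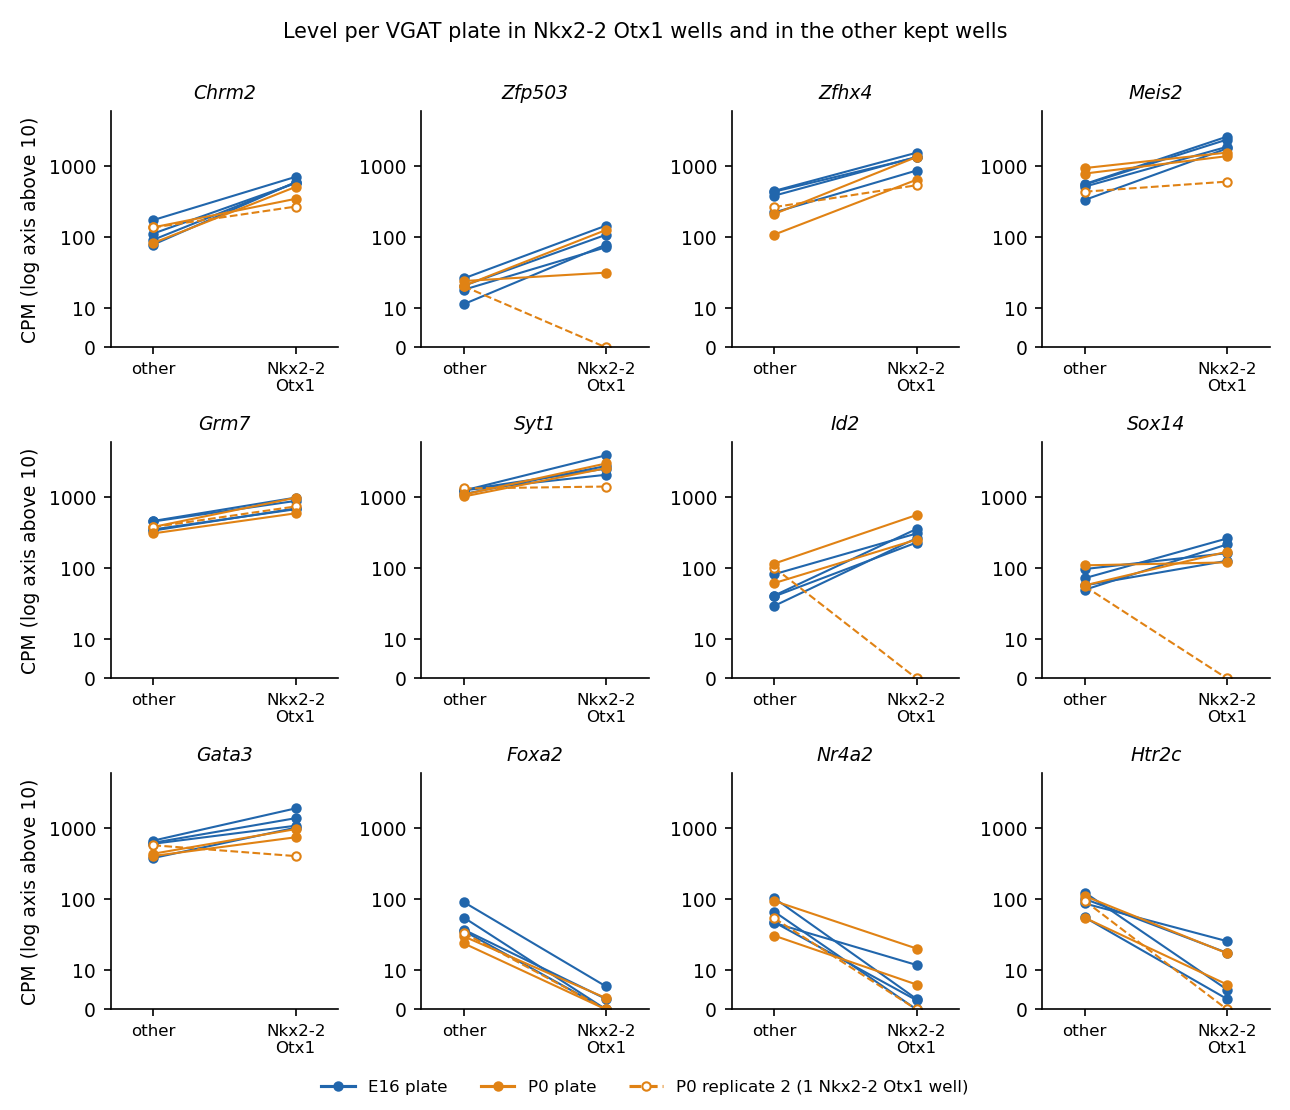
Level of 12 genes in plate sums of the other VGAT cells (left) and the Nkx2-2 Otx1 cells (right), in CPM on an axis that is logarithmic above 10 CPM, with a line per VGAT plate (P0 replicate 2, with 1 Nkx2-2 Otx1 cell, dashed with open points). Chrm2 runs from 78.8 to 175 CPM on the left and from 271 to 711 CPM on the right.

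The other genes were compared within plates, with the counts of the Nkx2-2 Otx1 cells summed per plate and set against the sum of all other VGAT cells of that plate (edgeR quasi-likelihood test with the plate as a block, 11391 genes, Benjamini-Hochberg adjustment, threshold 0.05). Of these genes 558 passed, 4.90% of those tested, 205 higher (1.80%) and 353 lower (3.10%). The higher genes included the homeodomain factors Zfhx4 and Meis2, the vesicle protein Syt1 and the glutamate receptor Grm7. The lower genes included Foxa2 and Nr4a2 of the dopamine lineage and the potassium channel gene Kcnk9. The cells were grouped through genes measured in the same wells, and the tests below describe how they differ and are no independent evidence of a cell type. Over the 6 plates other than VGAT P0 replicate 2, 134 of the higher and 241 of the lower genes had the same direction on every plate. The single cell of VGAT P0 replicate 2 had no count of 401 of the 558 genes, and with it the numbers were 24 and 228. The rule for named genes asked for all 7 plates, so it favours higher genes with a count in that cell.

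Among genes higher on all 7 plates, Zfhx4 (chr3:5218526-5415857, plus strand), a large zinc-finger homeodomain factor, had the third highest level, after Syt1 and Meis2. It ranged from 541 to 1558 CPM over plates of Nkx2-2 Otx1 cells (median 1336) and from 109 to 451 CPM over plates of other cells (median 266), without overlap (log2 difference 1.99 ± 0.14 SE, adjusted p 4.2e-12). Its antisense gene 2700069I18Rik, at chr3:5177586-5220841 on the minus strand and overlapping the start of Zfhx4, ranged from 112 to 335 CPM against 22.2 to 69.0 CPM (log2 2.37 ± 0.14). Gm42303, an antisense gene within Ptprd, had the largest log2 difference of the rule's higher genes at 2.84 ± 0.19, with 69.7 to 151 CPM against 7.76 to 21.5 CPM. Reads of both antisense genes and of their partners cannot be told apart with certainty, since the counting by strand is not given in the sources used here.

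Meis2 (chr2:115863064-116065839, minus), a TALE homeodomain factor of neuronal differentiation, had a median of 1789 CPM (609 to 2628) against 553 CPM (335 to 946), so the plates overlapped, but it was higher on each of them (log2 1.64 ± 0.18, adjusted p 3.4e-08). The lowest values of Meis2 (609 CPM) and Zfhx4 (541 CPM) were those of the single cell of VGAT P0 replicate 2. The overlap of Meis2 rested on that cell. Per cell, 86.4% of the Nkx2-2 Otx1 cells had at least 3 counts of Meis2 and 90.4% of Zfhx4, against 38.1% and 49.6% of the other Nkx2-2 cells. Syt1, the calcium sensor of synaptic vesicle release, ranged from 1421 to 3926 CPM (median 2581) against 1028 to 1335 CPM (median 1248), without overlap. Grm7, a presynaptic group III metabotropic glutamate receptor at chr6:110645581-111567230 (plus), had 595 to 991 CPM against 310 to 464 CPM (log2 1.05 ± 0.12).

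Smaller levels were measured for receptors and signalling genes that were also higher on all plates. Ptger3, the EP3 receptor of prostaglandin E2, averaged 53.7 ± 28.8 CPM against 12.8 ± 3.15 CPM (SD, n = 7; log2 1.89), and Htr4, a serotonin receptor that stimulates cyclic AMP, ranged from 36.2 to 135 CPM against 14.2 to 31.8 CPM (log2 1.09). Ngef, an exchange factor downstream of Eph receptors, averaged 66.9 against 31.3 CPM, the membrane protein gene Plxdc2 312 against 134 CPM, and Osbpl10, of the oxysterol-binding family, 51.8 against 21.0 CPM. A930017M01Rik, on the strand opposite to Sybu, averaged 91.6 against 46.8 CPM, and its call was lost with spliced counts. In the single cell of VGAT P0 replicate 2, the level of each of these genes rested on 1 or 2 counts, which is not resolved, and on the other plates Htr4 reached at most 69.7 CPM. With thinned cells the calls of Htr4 (log2 0.43, adjusted p 0.93) and Ngef (1.08) were lost.

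Several large differences were absent from the single cell of VGAT P0 replicate 2 and held on the 6 other plates. These 8 genes were picked after their values were seen. Id2 (chr12:25093799-25097140, minus), an inhibitor of basic helix-loop-helix factors, had 0 CPM on that plate and a median of 266 CPM over all 7, with 29.4 to 116 CPM in other cells (log2 2.43 ± 0.17, adjusted p 1.2e-12). At least 3 counts of Id2 were found in 44.8% of Nkx2-2 Otx1 cells and in 6.88% of other Nkx2-2 cells. Sgcz, a sarcoglycan gene, had a median of 4812 CPM against 1004 CPM and was the most abundant of the 8. Its call was lost in DESeq2. Prlr, the prolactin receptor, averaged 79.5 ± 45.4 against 27.3 ± 9.64 CPM, and Lypd1, which encodes a modulator of nicotinic receptors, 294 ± 216 against 101 ± 24.3 CPM. Chn2, a Rac GTPase-activating protein, averaged 361 against 121 CPM, the cadherin Dchs2 81.5 against 28.9 CPM, Prr16 257 against 66.9 CPM and the motor protein gene Myo5b 41.0 against 10.8 CPM. A single plate lay far above the others for Myo5b and raised its mean.

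The genes lowest in the Nkx2-2 Otx1 cells were near 0 there. Foxa2 (chr2:148042877-148046969, minus), a forkhead factor of floor plate and dopamine neurons, had 0 to 5.84 CPM (median 0) against 23.8 to 91.0 CPM in other cells (log2 -4.38 ± 0.35, adjusted p 5.7e-11). The adjacent long non-coding gene 9030622O22Rik (chr2:147944740-148040203, minus) had 0 to 11.7 CPM against 21.3 to 184 CPM. Nr4a2 (Nurr1), a nuclear receptor needed by dopamine neurons, had 0 to 20.1 CPM against 30.6 to 103 CPM (log2 -3.29 ± 0.31). Kcnk9, a leak potassium channel, had 0 to 9.84 CPM against 29.0 to 55.0 CPM. None of these 4 genes overlapped between the groups, nor did Irs4 and St18. The rule names genes with large differences in 1 direction on every plate, which favours this. The insulin receptor substrate gene Irs4 (2.75 against 31.2 CPM), St18 of the Myt zinc-finger family (5.45 against 53.0 CPM), the factor gene Mab21l1 (2.70 against 42.5 CPM) and the helix-loop-helix gene Neurod6 (3.48 against 36.4 CPM) completed the rule's 8 lower genes.

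No difference passed in the GABA programme itself. None of 6 genes of GABA synthesis, transport and release passed, with a median log2 difference of -0.09 beside 0.00 over all genes tested. Slc32a1 averaged 233 CPM against 245 CPM and Gad2 617 against 581 CPM. All Nkx2-2 Otx1 cells had a count of Gad2 at full depth, and 97.9% per plate on average had one of Slc32a1. After thinning, Gad2 was found in 95.3% ± 4.63 and Slc32a1 in 63.7% ± 13.9 of them, against 78.9% ± 5.61 and 53.2% ± 9.77 of other VGAT cells (SD, n = 6). Slc17a6, the vesicular glutamate transporter of midbrain excitatory neurons, was in 0.877% and 1.11% at 4000 counts, in 2.02% and 0.685% at 8000 counts and in 4.55% and 1.96% without thinning. These shares rest on 1, 2 and 5 Nkx2-2 Otx1 cells, and their order changed with depth. None of the 5 tested genes of other transmitters passed, and the cholinergic and noradrenergic genes Chat, Slc18a3 and Dbh were at 0 CPM in all Nkx2-2 Otx1 sums.

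Of 11 tested selector genes of midbrain GABA neurons, 2 were higher and 3 lower. Gata3 had a median of 1021 CPM (406 to 1914) against 577 CPM (382 to 671), with a log2 difference of 1.09 ± 0.14 and adjusted p 8.4e-07. Its partners Gata2 (110 against 104 CPM) and Tal1 (180 against 165 CPM) did not pass. Sox14, a repressor of the SoxB2 group, averaged 152 against 71.4 CPM (log2 1.27 ± 0.17), and at least 3 counts were found in 48.0% of the cells, 11.8% of other Nkx2-2 cells and 21.6% of cells with Otx1, Gli3 or Stk32a alone. After thinning, Sox14 was in 40.2% ± 16.5 against 15.8% ± 5.33 of other VGAT cells. The call of Sox14 was lost with depth-matched cells (log2 0.98). The helix-loop-helix factors Ebf1 (26.0 against 195 CPM, log2 -2.85) and Ebf3 (17.0 against 106 CPM), and Zfpm2 (FOG2), a cofactor of GATA factors (413 against 831 CPM), were lower.

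Genes of midbrain regional identity were mostly lower. Of 10 tested, 7 passed, all lower, among them the engrailed genes En1 (8.55 against 63.8 CPM) and En2 (14.7 against 57.3 CPM), the paired box genes Pax7 (0.379 against 24.1 CPM) and Pax8 (1.31 against 19.8 CPM) and Irx5 (4.27 against 34.0 CPM). Otx2, the paralogue of Otx1, averaged 36.9 ± 66.7 against 107 ± 25.6 CPM (SD, n = 7; log2 -1.75 ± 0.35). It was lower on 6 of 7 plates, with a median of 19.0 CPM and 187 CPM on the plate where it was higher. At least 3 counts of it were present in 5.60% of Nkx2-2 Otx1 cells and in 25.8% of other Nkx2-2 cells. With depth-matched VGAT cells the call of Otx2 was lost (log2 -1.28, adjusted p 0.20). Of 6 tested members of the hedgehog pathway only Gas1, a co-receptor, passed (1.85 against 7.72 CPM), and this was lost without VGAT P0 replicate 1 (log2 -1.69) or replicate 2 (-1.95). The receptor gene Ptch1 had 28.4 against 45.4 CPM and did not pass.

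**Figure D3:**
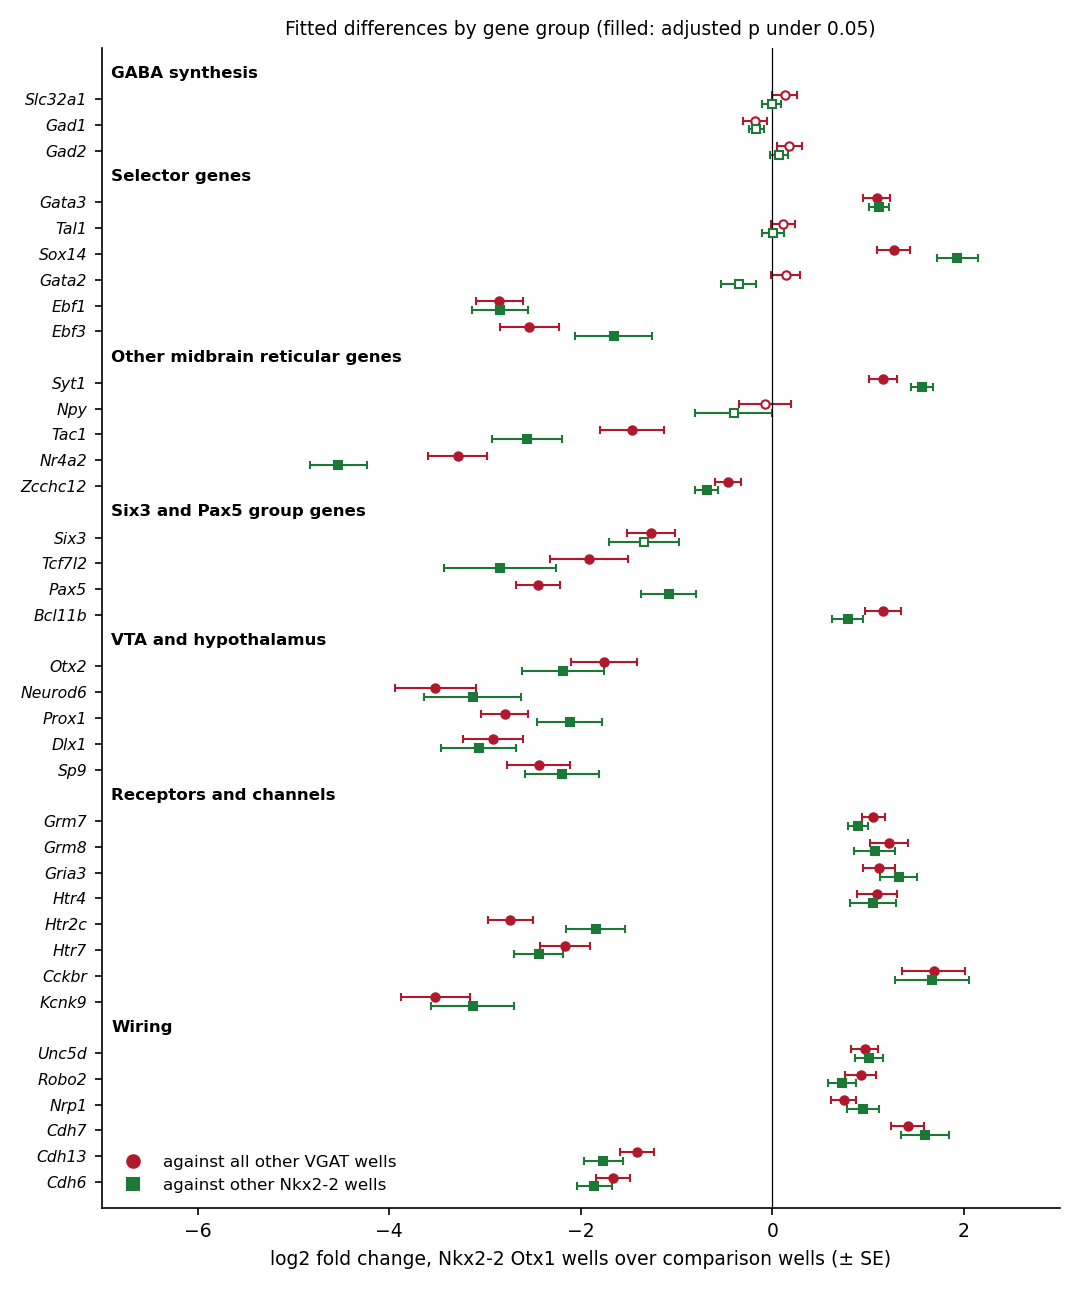
Log2 difference with its standard error for genes ordered by group, for Nkx2-2 Otx1 cells against all other VGAT cells (red) and against other Nkx2-2 cells (green). Values right of 0 are higher in the Nkx2-2 Otx1 cells, such as Gata3 (1.09 in red) and Sox14 (1.93 in green), and the genes of the VTA and hypothalamus group lie left of 0.

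Many markers of VTA and SNr GABA neurons were lower, while those of Onecut neurons had a median log2 difference of 0.01. These lists were chosen with earlier results of the same wells known, so they are not independent evidence of a direction. All 8 tested genes of VTA GABA neurons were lower (median log2 -1.79), among them Prox1 (11.9 against 89.9 CPM), Satb1 (34.6 against 133 CPM) and Otx2. Megf11 was the weakest, and its call was lost without VGAT E16 replicate 3 (-0.64), E16 replicate 4 (-0.46) or P0 replicate 2 (-0.71). With depth-matched cells the calls of Megf11 (-0.52), Pappa (-0.75), Dach1 (-0.63) and Otx2 (-1.28) were lost. Of 8 genes of Pax5 neurons of the caudal SNr, 5 were lower, such as Pax5 (30.8 against 136 CPM) and Pou3f1 (3.12 against 27.4 CPM), while Bcl11b, a zinc-finger factor, was higher (389 against 198 CPM). Of 8 genes of Six3 neurons of the rostral SNr, 6 were lower, such as Six3 (189 against 450 CPM) and its antisense partner Six3os1. Foxp2 stood in that list and among the MRF genes, with 75.2 against 304 CPM. With depth-matched cells the calls of Bcl11b (1.09), Klhl14 (-1.56), Six3 (-1.17), Six3os1 (-1.61), Foxp2 (-1.79), Tcf7l2 (-1.54) and Nr2f2 (-0.51) were lost. Of 6 genes of Onecut neurons, the nociceptin precursor Pnoc was higher (192 against 143 CPM) and the somatostatin gene Sst lower (124 against 234 CPM). Pnoc was lost without VGAT E16 replicate 1 (log2 0.47) or replicate 2 (0.51), and Sst without VGAT P0 replicate 2 (-1.14). Both were also lost with depth-matched cells (Pnoc 0.60, Sst -0.50 with an adjusted p of 0.79).

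Of 15 tested genes listed as MRF markers 3 were higher (Syt1, 2700069I18Rik and Sox14) and 8 lower, which included Nr4a2, the tachykinin gene Tac1 (23.1 against 58.0 CPM) and Dpyd, which encodes a pyrimidine-degrading enzyme (13.6 against 41.8 CPM). The list joins markers of different MRF groups. The paper assigns Chrm2, Npy, and Tac1 with Nr4a2 to separate MRF clusters. At least 3 counts of Tac1 or of Nr4a2 were each found in 1 Nkx2-2 Otx1 cell (0.800%), while 9.34% and 9.58% of the other Nkx2-2 cells had them. The neuropeptide Y gene Npy, another MRF marker, had 46.7 against 69.0 CPM and did not pass, and 8.00% of the cells had at least 3 counts of it, against 8.85% of other Nkx2-2 cells. The call of Tac1 was lost without VGAT P0 replicate 2 (log2 -1.46), that of Ell2 without VGAT E16 replicate 4 (-1.38), and that of Zcchc12, a zinc-finger gene lower at 381 against 556 CPM, without any 1 of 5 plates, VGAT E16 replicates 1 to 4 and P0 replicate 3 (-0.37 to -0.49). With depth-matched cells the calls of Tac1 (-1.37), Dpyd (-1.23), Ell2 (-1.04) and Zcchc12 (-0.26) were lost.

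Most tested genes of neighbouring regions and dopamine neurons were lower. All 5 tested hypothalamic genes were lower, for example Dlx2, Sp9 and Dlx1, the last with 6.18 against 44.7 CPM. Of 5 tested genes of hindbrain and interpeduncular nucleus, Mab21l1, Pax7 and Otp were lower and Lamp5 had 61.2 against 48.3 CPM. Against other Nkx2-2 cells Lamp5 was the 1 gene of 4 tested in that list that passed, and it was higher (67.0 ± 42.1 against 27.2 ± 17.8 CPM, SD, n = 6; log2 1.49 ± 0.31, adjusted p 0.0074 in edgeR), with at least 3 counts in 16.8% against 3.69% of cells. This call was lost without VGAT E16 replicate 1 (1.17) or replicate 4 (1.25). Of 6 tested dopamine neuron genes 4 were lower (Foxa2, Nr4a2, En1 and Ddc), and Pitx3 was at 0 CPM and Th at up to 2.66 CPM in Nkx2-2 Otx1 sums. No serotonin neuron gene was abundant enough to be tested, and the list summed to at most 19.0 CPM.

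Glial and other non-neuronal markers were low on the 6 plates with at least 5 Nkx2-2 Otx1 cells. The oligodendrocyte list of 8 genes summed to between 40.5 and 51.4 CPM, with Olig2, Sox10 and Cspg4 at 0, against 49.5 to 77.9 CPM in other Nkx2-2 cells. The astrocyte and radial glia list of 10 genes summed to between 17.5 and 78.4 CPM, with Slc1a3, Aqp4 and Gfap at 0, against 74.8 to 156 CPM. Against all VGAT cells, 2 of its 4 tested genes were lower (Vim and Sparcl1). The 6 genes of cycling cells summed to 12.5 to 35.04 CPM, mostly Pcna, with Mki67 and Cdk1 at 0. Microglial genes summed to at most 9.97 CPM with C1qa, C1qb and Tyrobp at 0, and vessel genes to at most 11.0 CPM with Rgs5 and Pdgfrb at 0. The list of 10 immediate early and stress genes summed to 42.6 to 125 CPM against 47.0 to 127 CPM in other Nkx2-2 cells, and none of its 3 genes tested there passed, nor any of the 6 tested against all VGAT cells.

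The other Nkx2-2 cells share the gene that defines the domain. On the 6 plates with at least 5 Nkx2-2 Otx1 cells, 124 of these were set against 347 other Nkx2-2 cells, and 373 of 10066 genes passed (3.71%), 186 higher (1.85%) and 187 lower (1.86%). Both comparisons use the sums of Nkx2-2 Otx1 cells of these plates, so their values are given side by side and not as a check of each other. Nkx2-2 itself was at 213 ± 64.2 CPM in Nkx2-2 Otx1 cells and at 265 ± 38.6 CPM in the other Nkx2-2 cells (SD, n = 6), a description since it chose both. Of the rule's higher genes Id2 had the largest log2 difference, with 215 to 538 CPM (median 270) against 19.9 to 72.7 CPM (median 31.5) and a log2 difference of 3.06 ± 0.14 (adjusted p 1.8e-09). Zfhx3, the paralogue of Zfhx4 with roles in neuronal maturation, had 1309 to 2967 CPM (median 2048) against 60.7 to 1087 CPM (median 586), with log2 1.98 ± 0.24. Both genes were without overlap between the groups, which the naming rule favours.

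Prlr averaged 87.4 ± 30.4 against 15.5 ± 6.51 CPM and Prmt8, a neuronal arginine methyltransferase, 54.8 ± 32.8 against 12.7 ± 4.19 CPM, again without overlap. At least 3 counts of Prlr were found in 26.4% of Nkx2-2 Otx1 cells and in 3.44% of other Nkx2-2 cells. Ptger3 (48.4 against 7.72 CPM), Myo5b (45.2 against 8.09 CPM), Gm42303 (98.9 against 21.2 CPM) and 2700069I18Rik (194 against 47.7 CPM) were higher too. Myo5b reached 139 CPM on a single plate, and its medians were 29.9 against 7.47 CPM. Gata3 averaged 1124 against 518 CPM (log2 1.11) and Sox14 167 against 39.9 CPM (log2 1.93). Syt1 averaged 2653 against 883 CPM (log2 1.56).

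Of 5 tested dopamine neuron genes 3 were lower than in the other Nkx2-2 cells (Nr4a2, Foxa2 and Ddc), and so was Nfib. Nr4a2 is also in the list of MRF markers. Nr4a2 had 0 to 18.9 CPM (median 4.27) against 79.5 to 251 CPM (median 138), with log2 -4.53 ± 0.30 (adjusted p 2.2e-07). Nfib, a nuclear factor I gene of late-born neurons and glia, had 40.2 to 112 CPM against 449 to 888 CPM (log2 -3.06 ± 0.21), and its call was lost when the limit was set at a sum of 2. Foxa2 (1.78 against 47.5 CPM), its neighbour 9030622O22Rik (6.38 against 72.2 CPM) and Kcnk9 (3.36 against 37.9 CPM) were lower, and all 5 genes were without overlap, which the naming rule favours. Tac1 averaged 25.4 against 129 CPM (log2 -2.56), and Tcf7l2, a factor of Wnt signalling and of thalamic and midbrain neurons, 148 against 864 CPM (log2 -2.84). All 8 VTA GABA genes and all 5 hypothalamic genes tested were lower here as well, though the calls of Pappa (-1.37) and Dach1 (-0.97) were lost with depth-matched cells. Of the SNr lists few genes passed here, with 1 of 7 genes of Pax5 neurons lower (Pax5) and 1 higher (Bcl11b), and 2 of 8 genes of Six3 neurons lower (Tcf7l2 and Islr2). Of 5 Onecut genes Pou2f2 and Pnoc were higher. The calls of Pax5 (-0.66), Bcl11b (0.65) and Pnoc (0.49) were lost with depth-matched cells, and with thinned cells Pnoc was at -0.38. Of 8 patterning genes only Otx2 passed (40.5 against 139 CPM), En2 had 16.1 against 14.9 CPM, and Six3 had 207 against 463 CPM (log2 -1.34, adjusted p 0.052).

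**Figure D4:**
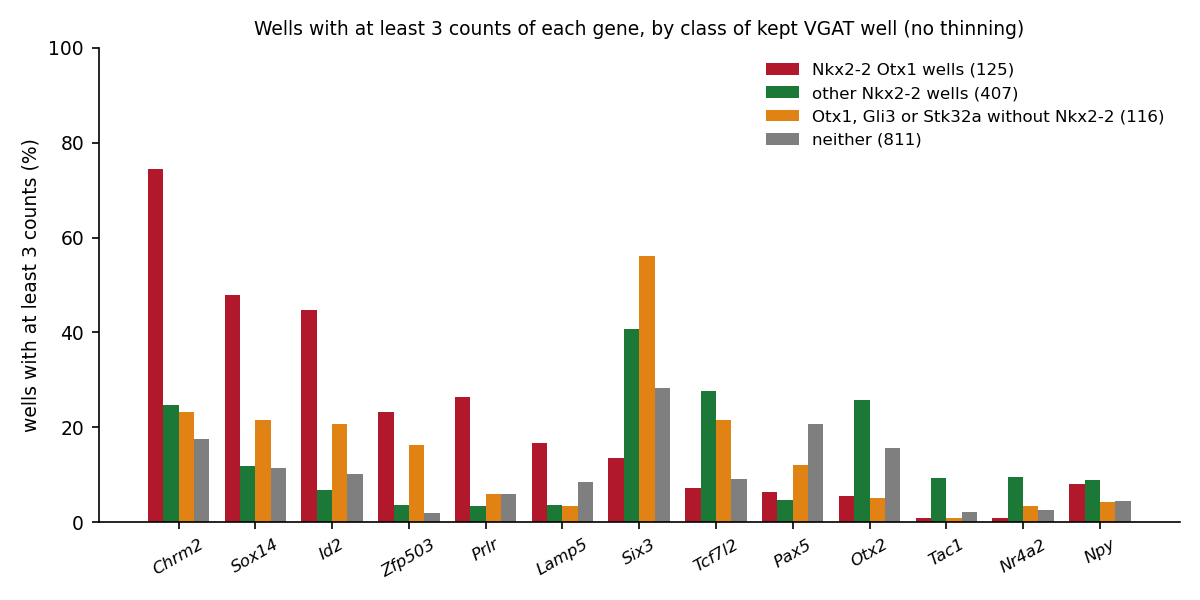
Share of cells with at least 3 counts of 13 genes, in percent, in Nkx2-2 Otx1 cells (125), other Nkx2-2 cells (407), cells with Otx1, Gli3 and Stk32a counts but no Nkx2-2 (116) and cells with neither (811), not thinned. Chrm2 reaches 74.4% in the first class and 17.5% to 24.8% in the others, and Six3 is at 13.6% against 28.4% to 56.0%.

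Neurotransmitter receptors differed gene by gene. Chrm2 was not tested, and none of the 5 muscarinic and nicotinic receptor genes that were tested passed, and the M3 receptor gene Chrm3 had 169 against 190 CPM in all other VGAT cells. Of 9 tested monoamine receptors Htr4 was higher, while the serotonin receptor genes Htr2c (10.6 against 89.7 CPM, log2 -2.74 ± 0.24) and Htr7 (7.27 against 40.1 CPM) were lower. Against other Nkx2-2 cells Htr2c had 11.6 against 44.7 CPM and Htr7 7.97 against 50.9 CPM, both lower. Of 13 tested neuropeptide receptor genes the cholecystokinin receptor Cckbr was higher (19.4 against 6.59 CPM) and the somatostatin receptor Sstr2 lower (1.55 against 10.9 CPM).

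Of 20 tested glutamate receptor genes 4 were higher and 4 lower. Gria3, an AMPA receptor subunit, averaged 347 against 163 CPM (log2 1.11 ± 0.17), and Grm8, a further presynaptic group III receptor, 655 against 287 CPM (log2 1.22 ± 0.20). The NMDA receptor subunit Grin3a (201 against 403 CPM) was lower. The calls of Grik1 and Grik3 were each lost in at least 8 of the alternatives. Among 16 tested GABA-A and glycine receptor subunits 2 were lower, of which Gabrg1 had 40.4 against 86.1 CPM. Against other Nkx2-2 cells Gabrb2 (288 against 130 CPM) was higher.

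Of 13 tested neuropeptide genes Pnoc and Vgf were higher and Tac1, Sst, Nts and Rln3 lower. Neurotensin (Nts) averaged 0.729 against 21.6 CPM, and relaxin 3 (Rln3) had no count in any Nkx2-2 Otx1 sum against 7.46 CPM, a call lost without VGAT P0 replicate 1. The call of Vgf was lost without VGAT E16 replicate 2 (log2 0.51) or 3 (0.61), or P0 replicate 1 (0.27) or 2 (0.61), and with depth-matched cells (0.61). Of 9 tested calcium-binding proteins the calbindin gene Calb1 (11.0 against 95.5 CPM) and Necab1 (8.31 against 37.8 CPM) were lower, and neurocalcin (Ncald, 409 against 264 CPM) and Hpcal1 higher, the last of these not without VGAT E16 replicate 2 (log2 0.39) or P0 replicate 1 (0.41). With depth-matched cells the call of Calb1 was lost (-2.07). Among 27 tested potassium and HCN channel genes, Kcnk9 was lower. Kcnn3 was higher and Kcnip4 lower in the same comparison, with calls lost in 9 and 4 of the alternatives.

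Genes of axon guidance and adhesion moved in both directions. Of 8 netrin pathway genes the receptors Unc5d (991 against 521 CPM, log2 0.96 ± 0.14) and Dscam (830 against 593 CPM) were higher and the ligand Ntn1 lower (2.47 against 13.3 CPM). Of 16 tested Slit, Robo and semaphorin genes, Robo1, Robo2, Nrp1 and Sema3c were higher and Slit1, Slit2, Slit3, Sema3a and Sema6a lower. Robo2 averaged 1524 against 810 CPM and the 3 Slit ligands between 22.8 and 64.4 CPM against 49.2 to 145 CPM. Of 16 Eph and ephrin genes Epha4 was higher (236 against 134 CPM) and Epha3 and Epha5 lower. Single plates decided the calls of Dscam (lost without VGAT E16 replicate 2, log2 0.49, or replicate 3, 0.49), Ntn1 (without E16 replicate 2, -1.86), of Slit3 (without E16 replicate 3, -0.71) and of Sema6a (without E16 replicate 3, -0.49). The calls of Epha3 (-0.51, -0.62 and -0.78) and Epha5 (-0.47, -0.48 and -0.63) were lost without VGAT E16 replicate 3, E16 replicate 4 or P0 replicate 2, and that of Epha5 also without P0 replicate 3 (-0.58). With depth-matched cells the calls of Slit2 (-0.31, adjusted p 0.87), Slit3 (-0.66), Robo1 (0.58), Sema3c (1.02), Sema3a (-1.94), Sema6a (-0.55), Epha3 (-0.93) and Epha5 (-0.80) were lost.

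Of 22 tested cadherin genes 7 were higher and 4 lower. Cdh7 (199 against 84.9 CPM, log2 1.41 ± 0.17), Cdh8, Cdh12, Cdh18, Cdh22, Pcdh7 and Pcdh17 were higher. Cdh13 (215 against 623 CPM, log2 -1.42 ± 0.18), Cdh6 (76.6 against 257 CPM), Cdh4 (124 against 295 CPM) and Cdh20 were lower. Over plates Cdh7 ran from 0 to 342 CPM, with 0 on VGAT P0 replicate 2, and Cdh13 from 0 to 409 CPM against 522 to 872 CPM in other cells, without overlap. The call of Cdh20 was lost without VGAT E16 replicate 1 (log2 -0.73) or 2 (-0.69), or P0 replicate 1 (-0.79) or 2 (-0.91), and that of Pcdh17 with depth-matched cells (0.56). Against other Nkx2-2 cells Cdh7 had 219 against 74.7 CPM, Cdh13 236 against 805 CPM and Cdh6 84.1 against 317 CPM.

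Thinning every cell to 8000 counts ended further of these calls. It also lowered the number of cells and genes tested, and left 6 of 7 plates in the comparison with other VGAT cells and 3 of 6 in that with other Nkx2-2 cells. The rule was applied again to the thinned counts, and 50 cells met it. Of the members at full depth 7 were too shallow. The rest that missed the rule stood among the other VGAT cells, or among the other Nkx2-2 cells if a count of Nkx2-2 remained. The part of this shift of cells in the thinned values was not tested. Against other VGAT cells the calls lost were, among receptors and signalling genes, Gria3 (log2 0.48), Grik3 (0.25), Gabrg1 (-0.39), Htr7 (-2.16), Vgf (0.15), Pnoc (0.11), Ncald (0.63) and Hpcal1 (0.49). Among guidance and adhesion genes they were Slit1 (-0.84), Epha4 (0.63), Dscam (0.57), Cdh18 (0.19), Cdh20 (-0.44) and Cdh22 (1.01). Among markers of regions and GABA groups they were En2 (-1.18), Neurod6 (-1.84), Megf11 (-0.93), Dach1 (-0.70), Bcl11b (0.57), Dpyd (-0.91) and Zcchc12 (-0.32). Against other Nkx2-2 cells the calls of Lamp5 (1.41), Prmt8 (1.87), Gabrb2 (0.25), Htr7 (-2.21), Cdh6 (-0.66), Bcl11b (0.37) and Islr2 (-1.95) were lost. Of the VTA GABA genes Prox1 (-1.83), Satb1 (-1.22), Pappa (-1.91), Megf11 (-1.15), Neurod6 (-1.01) and Dach1 (-0.65) lost theirs in that comparison, with the same direction.

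Between stages, no gene of 8291 passed when the Nkx2-2 Otx1 sums of 2 P0 plates were set against those of 4 E16 plates (edgeR quasi-likelihood test; 704 genes at unadjusted p under 0.05; 9 genes in DESeq2). In simulated counts of this design the test recovered 40% of genes changed 2-fold and 87% of genes changed 4-fold. The changed genes averaged at least 30 CPM, and the simulated spread followed the trend with level, not each gene's own. Recovery at lower levels was not simulated. The genes with the lowest p, picked after their values were seen, were the adhesion receptor Adgra3 (80.7 CPM at E16 and 15.8 CPM at P0), the phosphodiesterase Pde1a (6.48 and 48.3 CPM) and Robo1 (1988 and 840 CPM), each with an adjusted p of 0.12. With the second plate label all 3 changed sign.

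The difference between Nkx2-2 Otx1 cells and other VGAT cells was itself compared between stages. Of 11391 genes 8 passed (0.0702%), 3 with a higher difference at P0 (0.0263%) and 5 with a lower one (0.0439%). DESeq2 called 3 of these 8, all with a lower difference at P0, and none with a higher one. Meis2 averaged 2174 CPM in Nkx2-2 Otx1 cells and 492 CPM in other cells at E16, and 1189 and 726 CPM at P0 (log2 -1.42 ± 0.27, adjusted p 0.0086). Grm8 averaged 892 against 258 CPM at E16 and 338 against 327 CPM at P0 (log2 -1.68 ± 0.31). Nuak1, a kinase of the AMPK family, had 55.6 against 35.2 CPM at E16 and 20.3 against 74.3 CPM at P0 (log2 -2.42 ± 0.45). Foxp1 (log2 -2.04) and Zfp703 (-3.06) were the other genes with a lower difference at P0.

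Otx2 had 13.1 against 124 CPM at E16 and 68.7 against 83.8 CPM at P0 (log2 3.37 ± 0.50, adjusted p 0.00053). The P0 level rested on 1 plate, with 187 CPM on VGAT P0 replicate 1, 0 on replicate 2 and 19.0 on replicate 3, and without replicate 1 the value was 0.61 and did not pass. With thinned cells the value of Otx2 turned to -6.30 and did not pass. Thinning left 1 and 4 Nkx2-2 Otx1 cells on VGAT P0 replicates 1 and 3. The overlapping antisense gene Otx2os1 (log2 2.81) and Igfbp5 (2.22) turned to -1.01 and -0.028 without VGAT P0 replicate 1, and to -6.21 and -1.33 with thinned cells. Without VGAT P0 replicate 2, the plate with 1 cell, Meis2 alone of the 8 kept its call. With the second plate label each of the 8 values changed sign. Stage and plate cannot be told apart where the labels disagree.

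**Figure D5:**
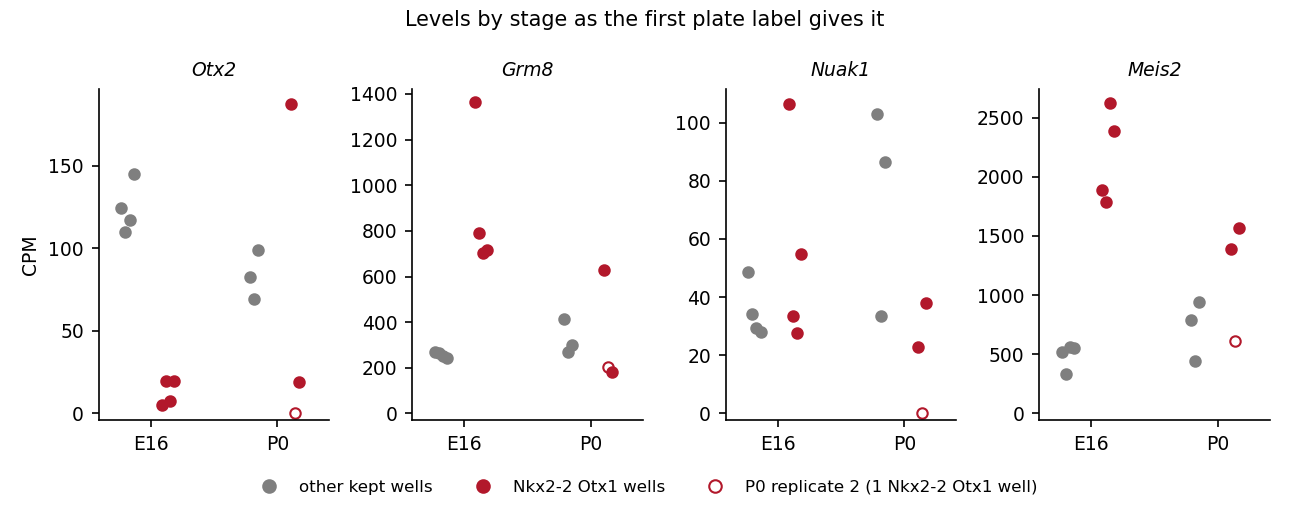
Level of Otx2, Grm8, Nuak1 and Meis2 in CPM at E16 and P0 on each VGAT plate, for Nkx2-2 Otx1 cells and other VGAT cells, by the first plate label (open point, VGAT P0 replicate 2 with 1 Nkx2-2 Otx1 cell). Otx2 in Nkx2-2 Otx1 cells reaches 187 CPM on VGAT P0 replicate 1 and at most 19.8 CPM on the other plates.

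The Nkx2-2 Otx1 cells were not uniform. At least 3 counts of Chrm2 were present in 93 cells, 1 or 2 counts in 12 and none in 20. Six3 was absent from 74 cells, which averaged 11.6 counts of Chrm2, had 1 or 2 counts in 34 cells with 17.6, and reached 3 or more in 17 cells with 6.35, which were also deeper (median 33706 counts). Of the 20 cells without Chrm2, 5 had at least 3 counts of Six3, 5 of Otx2 and 6 of Npy, and 15 had a count of Otx1. In all, 26 cells (20.8%) had at least 3 counts of Six3, Pax5 or Otx2, markers of other GABA groups, and of these 16 had at least 3 counts of Chrm2, as did 77 of the other 99. No doublet caller was run, and the part of wells with more than 1 cell in these values was not tested. Leaving out the 85 VGAT cells with over 2 times the median count of their plate, 8 of them Nkx2-2 Otx1 cells, gave 588 passing genes in the comparison with other VGAT cells and shared 516 of the 558.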

How the data were processed

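SORT-seq libraries of single cells were used from 9 plates. The authors aligned reads with STAR to GRCm38 (mm10, per the labels), counted distinct molecular barcodes per gene and well, and deposited expected counts of exonic and intronic reads together, corrected for barcode collisions and not scaled to depth. The methods and labels differ on barcode length. In passing VGAT wells 55.0% of the non-zero values were not whole. They were rounded per well for the member rule and after summing for tests. Wells were kept with at least 2000 genes besides ERCC spike-ins, at most 50000 counts and under 15% mitochondrial counts.

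Members, gene lists and the rule for named genes were chosen with earlier results of these data known. Counts were summed per plate and class, ERCC and mitochondrial entries left out, and compared by the quasi-likelihood test of edgeR 4.0.16 (limma 3.58.1, R 4.3.3) with the plate as a block, after filterByExpr and with TMM factors, at a Benjamini-Hochberg adjusted p of 0.05. CPM are TMM-scaled within each comparison. Plates needed 5 cells per class for the comparison with other Nkx2-2 cells and between stages. Among genes left out of tests were the rule's and marker genes and those overlapping them, 10 in all. Named were the 12 highest and 8 lowest log2 differences (8 and 5 against other Nkx2-2 cells) past the threshold, in 1 direction on every plate and at 30 CPM or more in the higher class, the 3 lowest p of the interaction, and genes of the fixed lists. Some genes of these lists are not reported here. Alternatives were DESeq2 1.42.0, RLE factors, no filter, spliced counts, sums of 2 or 5, thinning, depth matching, deep wells left out, no block, the second stage label and each plate left out. In simulated counts 98% and 100% of genes changed 2-fold and 4-fold were recovered against other VGAT cells, 97% and 100% against other Nkx2-2 cells, 40% and 87% between stages and 30% and 86% in the interaction. The changed genes averaged at least 30 CPM, and the simulated spread followed the trend with level only. Other steps ran in Python 3.11.15 with pandas 2.3.3, scipy 1.17.1, numpy 2.4.6 and, for plots, matplotlib 3.10.9.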

Additional observations from a re-analysis of the deposited data

Results flagged for a closer look

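Of 36 groups of plates examined for a plate far from the others, 4 held one. The criterion used has a nominal rate of about 1 in 20, which was not simulated for these data. Nkx2-2 Otx1 cells took 16.4% of VGAT E16 replicate 4, far from the 3 other E16 plates (7.59% to 8.42%), and cells with any Nkx2-2 count took 49.0% of the same plate. The log2 difference with 10 CPM added was far from the other plates on VGAT P0 replicate 1 for Grm7 against other VGAT cells (1.34) and for Zfhx3 against other Nkx2-2 cells (4.22).

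The difference between Nkx2-2 Otx1 cells and other VGAT cells itself differed between stages for 8 genes in the edgeR interaction test (adjusted p of at most 0.021). On the log2 scale, P0 minus E16, the values were 3.37 for Otx2, 2.81 for Otx2os1 and 2.22 for Igfbp5, and -1.68 for Grm8, -2.42 for Nuak1, -1.42 for Meis2, -2.04 for Foxp1 and -3.06 for Zfp703. Igfbp5, Foxp1, Zfp703, Meis2 and Otx2os1 lie outside the naming rule and were singled out after their values were seen. With thinned cells Otx2 (-6.30), Otx2os1 (-6.21) and Igfbp5 (-1.33) changed sign, where VGAT P0 replicates 1 and 3 kept 1 and 4 Nkx2-2 Otx1 cells. The parts of the 2 plate labels and of VGAT P0 replicates 1 and 2 in these values are given by the alternatives below.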

How the results depend on the processing

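The comparison with other VGAT cells (558 genes) gave 279 genes after thinning to 8000 counts, 261 with depth-matched cells and 368 with no replicate block (the plate), and 469 to 616 with 1 plate left out. The comparison with other Nkx2-2 cells (373 genes) gave 606 with no filter, 173 thinned, 232 depth-matched and 287 to 409 with 1 plate left out. Over 124 and 82 genes of the naming rule and the lists, 1793 and 1117 alternative values kept direction and call, 257 and 156 lost the call, and Ell2 (0.15, sum of at least 2) and Kcnip4 (0.059, spliced) against other VGAT cells and Pnoc against other Nkx2-2 cells (-0.38, thinned) changed sign. The causes were not tested.

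Stage within Nkx2-2 Otx1 cells (0 genes) gave 9 with DESeq2, 101 with no filter, 9 with spliced counts, 6 with a sum of at least 2, 3 with the replicate number as a block and 0 to 22 with 1 plate left out. The 22 came without VGAT P0 replicate 1 or 3, where 1 P0 plate remains and is assumed to vary like the E16 plates. It could not be fitted after thinning. With the second plate label Robo1 (0.81), Adgra3 (0.66) and Pde1a (-2.29) changed sign. The interaction (8 genes) gave 3 with DESeq2, 28 with no filter, 18 spliced, 1 with a sum of at least 5, 15 without deep wells, 1 with no replicate block, 29 with the second plate label and 1 to 69 with 1 plate left out. With the second label its genes were at 0.79 (Nuak1), -2.06 (Otx2), 0.23 (Grm8), -1.63 (Igfbp5), 0.44 (Meis2), 0.77 (Foxp1), 0.96 (Zfp703) and -0.76 (Otx2os1), and after thinning Otx2 was at -6.30, Igfbp5 at -1.33 and Otx2os1 at -6.21. Thinning left 1 and 4 Nkx2-2 Otx1 cells on VGAT P0 replicates 1 and 3. With 1 plate left out Igfbp5 ranged from -0.028 to 2.97 and Otx2os1 from -1.01 to 3.58. The difference in member share ranged over plates left out from -7.92 to 2.08 points and was 0.220 with the replicate number as a block. Same-numbered E16 and P0 plates correlated at 0.010, 0.081 and -0.004 across 6679 genes, and not every plate correlated best with its own number, so the numbers do not pair the plates. Without deep wells the depth difference was 3759 counts and passed the exact test.

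Levels under about 3 counts of a plate sum are not resolved, which bears most on VGAT P0 replicate 2. Wells are counted once per cell, and intervals cover counting error only.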
